A study of Mus musculus with 2 samples.

Results

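The genes described here are the extracellular and membrane components of the Wnt system: the Wnt ligands, the Frizzled receptors, the co-receptors Lrp5 and Lrp6, and the secreted antagonists of the Sfrp and Dkk families. Members were taken by gene symbol, with no measured value in the rule, as every probe set annotated to exactly 1 gene symbol of the form Wnt, Fzd, Sfrp or Dkk with its number, or Lrp5 or Lrp6. The rule gave 76 probe sets for 39 of the 18193 genes on the array, namely 19 Wnt, 10 Fzd, 4 Sfrp and 4 Dkk genes with both co-receptor genes. Whole embryos of the mouse, taken 8.5 days after conception, were profiled on 1 Affymetrix array per genotype. In matUPD18 embryos both copies of chromosome 18 came from the mother (maternal uniparental disomy), and in patUPD18 embryos both came from the father, with age and tissue matched. The strain background, any treatment and the number of embryos behind each RNA are not stated in the labels. No array of embryos with a copy from each parent was used here, so each difference below is between the disomies.

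Wnt proteins are secreted, lipid-modified signals that bind the extracellular cysteine-rich domain of Frizzled receptors. Together with Lrp5 or Lrp6 a Frizzled then stabilises beta-catenin, which acts in the nucleus with TCF and LEF factors, while other Wnt and Frizzled pairs act on cell polarity without beta-catenin. Sfrp proteins carry a cysteine-rich domain like that of Frizzleds and bind Wnts outside the cell, whereas Dkk proteins bind the Lrp co-receptors. In the embryo at this age Wnt signals maintain the tail bud, pattern the dorsal neural tube and midbrain and take part in heart and gut formation.

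With 1 array per genotype there was no replicate, no test and no error between embryos, and the single array limits the precision of every value. The values are MAS5 signals, scaled by the authors to a common mean. Each gene was read by its brightest probe set. Signals under an array's 40th percentile (84.2 in matUPD18 and 82.5 in patUPD18) were raised to it before log2 ratios, always matUPD18 over patUPD18, were taken. A gene was called measurable where its higher signal reached that array's 60th percentile (190.1 or 184.9). Between measurable probe sets of 1 gene the log2 ratio varied with a pooled SD of 0.44 (4003 genes), the only measure of technical disagreement here. The label check gene Impact, the paternally expressed gene of chromosome 18, read 328 in matUPD18 and 2466 in patUPD18. The 3' probe set of Gapdh read 34.0 and 36.4 times its 5' probe set, so probe sets at a distance from the 3' end may read low on both arrays. Fewer cells of a type and less RNA per cell cannot be told apart in RNA from whole embryos.

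Most genes of the Wnt system had similar signals in the 2 disomies. Of the 27 measurable genes, 26 lay within 2-fold and 24 within 1.5-fold. The exception was Fzd2, 3.23-fold higher in patUPD18 by its brightest probe set. Towards matUPD18 the count past 2-fold was 0 of 27, beside 2.70% of all 10483 measurable genes, and towards patUPD18 it was 1 of 27, beside 1.78%. At 1.5-fold, Sfrp5 was higher in matUPD18 (1 of 27, against 9.97% of all genes) and Fzd2 and Sfrp2 were higher in patUPD18 (2 of 27, against 8.74%). These shares are no sign that the group differed from other genes. The median log2 ratio was 0.07 over the members and -0.04 over all measurable genes.

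Directions of the small ratios rested on the scaling. As deposited, 15 members read higher in matUPD18 and 12 in patUPD18, and the split was the same after median centring, quantile or loess scaling. Of all measurable genes, 46.1% read higher in matUPD18. Among the 15 members left with the measurable limit at the 75th percentile, the split was 6 and 9 and the median -0.02. The 9 bacterial and phage hybridisation controls read lower on the matUPD18 array, with a median log2 ratio of -0.50. Scaling to them moved the median of all genes to 0.47 and put 25 members higher in matUPD18 and 2, Fzd2 and Sfrp2, higher in patUPD18. Relative to the median of all genes the members' median was 0.12 as deposited and 0.10 after control scaling. It was lowest with the measurable limit at the 75th percentile (0.02) and highest by the median over probe sets (0.22). The directions below are those of the deposited scaling.

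**Figure D1:**
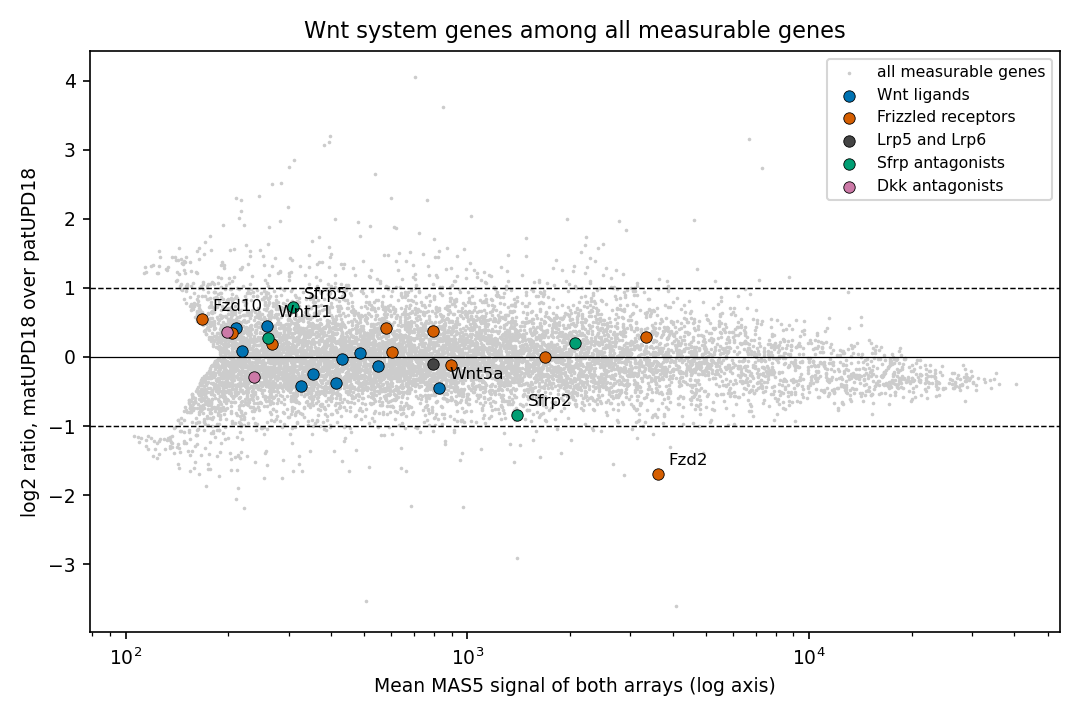
Log2 ratio of matUPD18 over patUPD18 (y axis) against the mean MAS5 signal of both arrays (x axis, log scale), 1 point per gene by its brightest probe set, for all 10483 measurable genes (grey) and the 27 measurable Wnt system genes (coloured by family). Dashed lines mark 2-fold; Fzd2 lies at -1.69 and the other 26 members lie between -0.84 and 0.72.

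Among Wnt ligands, 10 of 19 were measurable, none of them past 2-fold, and their median log2 ratio was -0.08 (0.42 after control scaling, where that of all genes was 0.47). Of the ligands best known for beta-catenin signalling, Wnt1, made in the midbrain and dorsal neural tube, read 225 in matUPD18 and 213 in patUPD18. Wnt2, known from the heart and lung field, read 324 and 385. These genes differed by less than the spread between probe sets of a gene. Wnt7a read 240 and 180 by its measurable probe set. Wnt7b read 522 and 572, and Wnt8b, a forebrain ligand, read 426 and 433. Of these 3, Wnt7b and Wnt8b were nearly level, and Wnt7a was 1.33-fold higher in matUPD18. Wnt6, known from surface ectoderm, read 360 and 467, and its dimmer measurable probe set had the same direction, at 159 and 195.

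Ligands best known for signalling without beta-catenin did not share a direction. Wnt5a, needed for elongation of the tail and limb, read 699 in matUPD18 and 951 in patUPD18. Its other measurable probe set read 274 and 337, so that both were higher in patUPD18, by 1.36-fold and 1.23-fold. Of its dimmer probe sets, neither of them measurable, 1 had the opposite direction at 171 and 96.4. Wnt5b read 495 and 478 by its brightest probe set and 338 and 204 by the other, giving log2 ratios of 0.05 and 0.73. Wnt11, a ligand of heart and notochord morphogenesis, read 299 and 219, or 1.37-fold higher in matUPD18, the largest in that direction among the 10 measurable ligands by brightest probe set. Wnt4, known from kidney and gonad formation, read 278 and 374, and its dimmer probe set, not measurable, read 75.4 and 123. Under control scaling Wnt4, Wnt5a and Wnt6 had log2 ratios of 0.08, 0.06 and 0.13, so their direction was not stable. That scaling moves every ratio towards matUPD18 (median of all genes 0.47), so it could not turn the ligands already higher there.

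The other 9 Wnt genes were not measurable, so their signals are given without a call. They include Wnt3 and Wnt3a, the ligands of the primitive streak and tail bud, whose probe sets read 24.3 and 31.4 for Wnt3 and 28.0 and 49.1 for Wnt3a. Both lay under the floor on both arrays, as did Wnt8a, Wnt10b and Wnt16. Each of these genes had a single probe set, and a low signal does not show that the transcript was absent. Wnt2b reached 96.4 in patUPD18 and read 43.4 in matUPD18. Wnt9a (179 and 132) and Wnt10a (177 and 157) fell just below the measurable limit, with the matUPD18 signal first. The widest gap was that of Wnt9b, which read 162 in matUPD18 and 30.8 in patUPD18, with the second signal under the floor. Its other probe set read 57.2 and 67.9, under the floor on both arrays.

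Several Wnt genes lie side by side in the genome, and 4 such pairs are direct neighbours among protein-coding genes of the RefSeq annotation. These are Wnt6 with Wnt10a on chromosome 1, Wnt3a with Wnt9a and Wnt9b with Wnt3 on chromosome 11, and Wnt10b with Wnt1 on chromosome 15. No pair had both genes measurable, so neighbours could not be compared.

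**Figure D2:**
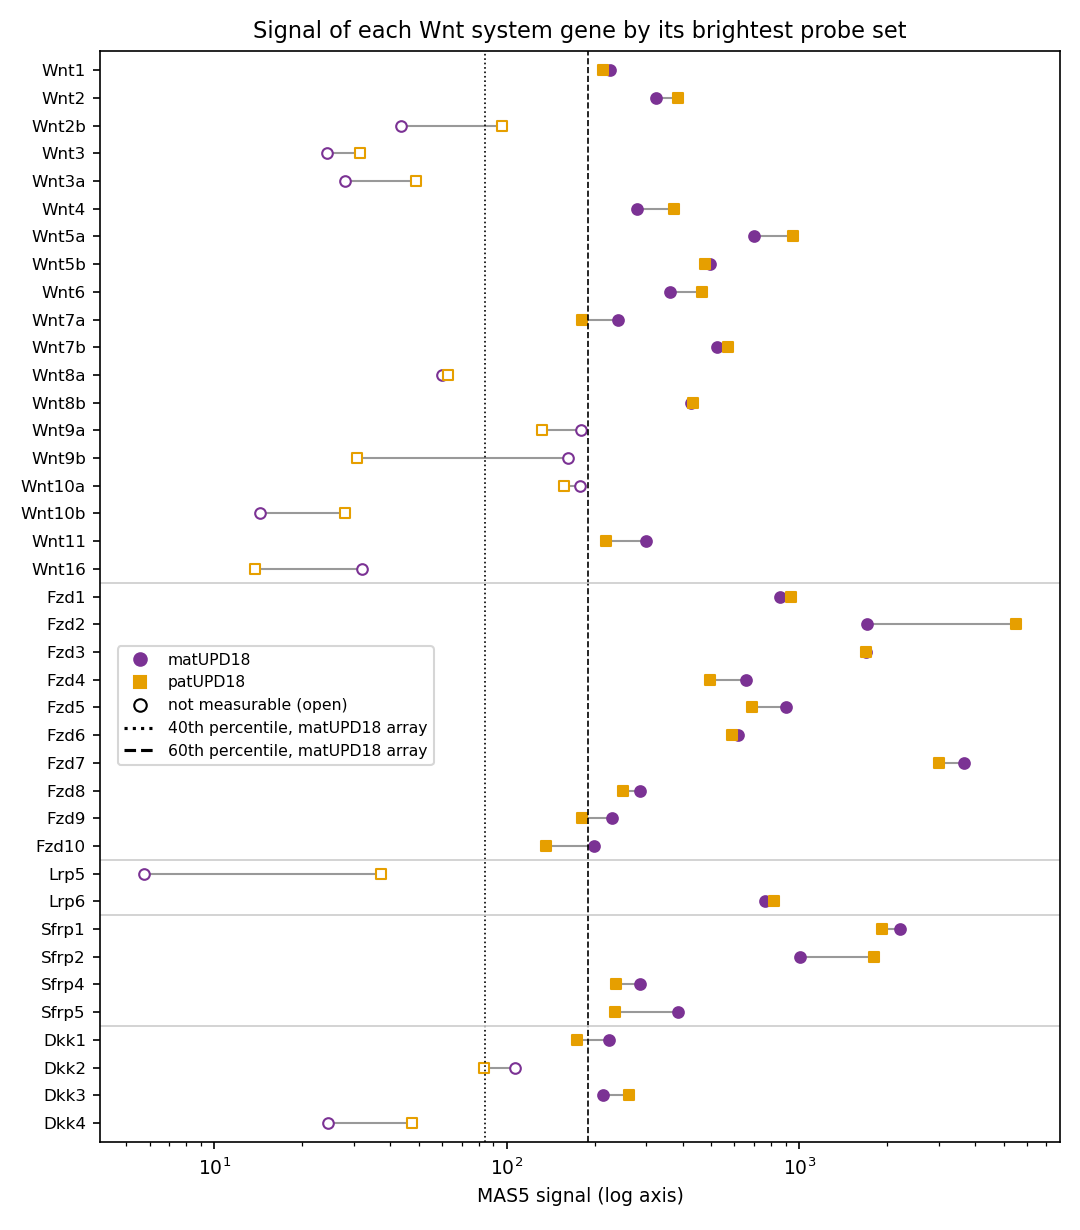
MAS5 signal (x axis, log scale) of each of the 39 genes by its brightest probe set, in matUPD18 (circles) and patUPD18 (squares), grouped by family from Wnt ligands at the top to Dkk antagonists at the bottom. Open symbols are the 12 genes that were not measurable; the dotted and dashed lines mark the 40th and 60th percentile of the matUPD18 array, and the gap of Fzd2 (1710 and 5517) is the widest of the filled pairs. Probe sets differ in sensitivity, so signals of different genes are not comparable.

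All 10 Frizzled genes were measurable, 9 of them within 2-fold. Fzd2, a receptor broadly expressed in mesenchyme that signals with and without beta-catenin, read 1710 in matUPD18 and 5517 in patUPD18 by its brightest probe set. The same gene read 1178 and 1523 by a further probe set and 542 and 721 by the last. All 3 were thus higher in patUPD18, but by 3.23-fold, 1.29-fold and 1.33-fold, although the annotation lists 1 sequence record for all 3. By its brightest probe set Fzd2 ranked 2 in size when set among the 500 genes nearest in mean signal. Read as the median over its probe sets, Fzd2 had a log2 ratio of -0.41, and no member then passed 2-fold. The 2-fold call therefore rests on 1 probe set.

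The other Frizzled genes read close to level or somewhat higher in matUPD18. Of the 10 Frizzleds, 7 read higher there, beside 46.1% of all measurable genes. The Frizzled median log2 ratio was 0.24 as deposited, where that of all genes was -0.04. After control scaling these medians were 0.75 and 0.47. Relative to the median of all genes the Frizzled median was 0.29 as deposited. It was lowest, 0.12, with the measurable limit at the 75th percentile and highest, 0.33, by the median over probe sets. Fzd7, a receptor of the early embryo and its mesoderm, read 3672 in matUPD18 and 2995 in patUPD18. Fzd5, known for its role in yolk sac and eye development, read 900 and 690, or 1.30-fold higher in matUPD18. Its dimmer probe set, not measurable, read 95.2 and 114, in the opposite direction. Fzd4, the receptor of Norrin in vessels, read 660 and 494, and its other measurable probe set read 289 and 249. These 3 differed by less than the pooled SD of probe sets of a gene. Fzd9 read 228 and 180, and Fzd10, known from the dorsal neural tube, read 199 and 136. The ratio of Fzd10, 1.46-fold, was the largest of a Frizzled towards matUPD18, but it ranked only 319 in size when set among the 500 genes nearest in signal. Fzd6, a polarity receptor of skin, read 618 and 587 by its brightest probe set. A dimmer one read 192 and 106, or 1.81-fold. Fzd1 read 858 and 935, higher in patUPD18 unless scaled to the controls.

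Fzd3, a receptor of axon guidance and neural tube closure, was represented by 6 probe sets, of which 4 were measurable. They read 1691 and 1693, 1482 and 1858, 728 and 1029, and 328 and 300, each with matUPD18 first. It was the only gene of 10 with several measurable probe sets in which they lay on both sides of equality. Their log2 ratios ran from -0.50 to 0.13.

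Of the 39 genes, 2 lie on chromosome 18, the chromosome whose parental origin differed. Fzd8, a receptor of the anterior neural plate, read 286 in matUPD18 and 250 in patUPD18, and its dimmer probe set, not measurable, read 104 and 66.2. Its measured 1.14-fold ratio stands beside 7.51-fold for Impact on the same chromosome. Wnt8a, a ligand of the early primitive streak, read 59.98 and 63.0, under the floor on both arrays.

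Of the co-receptors, Lrp6 read 763 in matUPD18 and 821 in patUPD18, a ratio of 1.08-fold. Lrp5 read 5.74 and 37.0 by its single probe set, under the floor on both arrays, so the data give no ratio for it.

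The secreted antagonists held both of the remaining ratios past 1.5-fold, in opposite directions. Sfrp2, an antagonist of neural tube and somite, read 1008 in matUPD18 and 1799 in patUPD18, or 1.79-fold higher in patUPD18. It ranked 26 in size when set among the 500 genes nearest in signal. Fzd2 and Sfrp2 were the 2 members past the 95th percentile of such genes, a limit that 5% of genes pass by definition. Sfrp2 has a single probe set on the array, so no further reading of it was available. Sfrp5, an antagonist of foregut and anterior visceral endoderm, read 385 and 234, or 1.65-fold higher in matUPD18. Its dimmer probe set, not measurable, read 112 and 37.6 in the same direction. Sfrp1 read 2204 and 1924 by its brightest probe set, with 1369 and 1141, and 1040 and 874, by its further measurable ones. These 3 probe sets had log2 ratios of 0.20, 0.26 and 0.25, a narrower range than those of Fzd2. Sfrp4 read 286 and 236.

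Among Dkk genes, Dkk1, an antagonist needed for head formation and a known target of Wnt signalling, read 223 in matUPD18 and 174 in patUPD18 by its brightest probe set. Its other probe set read 221 and 104, or 2.12-fold higher in matUPD18. It was the 1 of 41 measurable member probe sets at least 2-fold higher there, against 3.27% of all measurable probe sets. The brightest Fzd2 probe set was the 1 at least 2-fold higher in patUPD18, against 1.95%. Dkk3, a divergent member of the family, read 214 and 262 by its brightest probe set and 212 and 249 by the other, both higher in patUPD18 unless scaled to the controls. Dkk2 (106 and 83.2) and Dkk4 (24.4 and 47.3) were not measurable.

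The sequences before the start sites of Dkk1, Sfrp5 and Sfrp2 are shown because these were the antagonists furthest from equality by a probe set, and that of Msgn1, a tail bud gene that Wnt signalling activates, for comparison. Each is the 250 bases upstream of the RefSeq start site in GRCm38.p6, 5' to 3' on the strand of the gene. Capitals mark matches, on either strand, to a TCF/LEF motif core in any of its forms: the form CTTTGAA, the form CTTTGAT, the form CTTTGTA and the form CTTTGTT.
Dkk1 (chr19:30549497-30549746, minus strand): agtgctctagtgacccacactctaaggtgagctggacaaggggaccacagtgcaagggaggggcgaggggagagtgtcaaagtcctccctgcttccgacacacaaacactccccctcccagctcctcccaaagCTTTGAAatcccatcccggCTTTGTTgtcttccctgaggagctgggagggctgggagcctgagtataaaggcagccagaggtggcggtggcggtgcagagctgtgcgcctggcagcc
Sfrp5 (chr19:42202253-42202502, minus strand): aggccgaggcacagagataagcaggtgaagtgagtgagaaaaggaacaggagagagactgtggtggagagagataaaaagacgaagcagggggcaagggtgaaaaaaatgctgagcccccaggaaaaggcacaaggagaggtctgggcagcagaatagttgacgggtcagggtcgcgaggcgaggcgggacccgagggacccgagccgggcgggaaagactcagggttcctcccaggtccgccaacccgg
Sfrp2 (chr3:83766071-83766320, plus strand): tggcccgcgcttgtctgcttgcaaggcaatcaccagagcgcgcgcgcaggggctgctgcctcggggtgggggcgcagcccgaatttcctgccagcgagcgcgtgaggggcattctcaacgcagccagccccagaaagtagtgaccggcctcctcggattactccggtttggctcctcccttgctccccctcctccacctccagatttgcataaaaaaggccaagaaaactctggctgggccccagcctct
Msgn1 (chr12:11208949-11209198, minus strand): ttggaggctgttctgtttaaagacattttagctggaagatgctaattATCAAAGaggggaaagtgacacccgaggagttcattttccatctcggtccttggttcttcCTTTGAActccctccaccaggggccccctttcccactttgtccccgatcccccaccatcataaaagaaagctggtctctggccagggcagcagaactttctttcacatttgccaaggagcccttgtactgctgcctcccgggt

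The Dkk1 sequence held 2 matches, CTTTGAA starting 117 bases and CTTTGTT starting 98 bases before the start site, and Msgn1 also held 2. Neither Sfrp sequence held a match. Of the members, 25 had a promoter in the table and 4 of these (16.0%) held a match in at least 1 promoter, namely Dkk1, Fzd7, Wnt5b and Wnt11. By gene, the share was 15.2% of 17492 protein-coding genes and 35.3% (6 of 17) of the canonical Wnt target genes listed below. By promoter, it was 14.3% of the 28 member promoters and 14.8% of all 32851 promoters. Overlapping matches were counted separately. A match is a description of letters and does not show a bound site, and a window without a match shows nothing about the factors.

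Measurable probe sets of the same gene mostly pointed the same way. Of the 10 members with more than 1 measurable probe set, 9 had all of them on the same side of equality. The same count over all genes was not made. Among probe sets that were not measurable, a Wnt5a and a Fzd5 probe set above the floor on both arrays pointed the other way. The pooled SD of the log2 ratio between measurable probe sets of the 10 members was 0.40, beside 0.44 over all genes. The 3 probe sets of Sfrp1 spanned 0.20 to 0.26, and those of Fzd2 spanned -1.69 to -0.37.

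**Figure D3:**
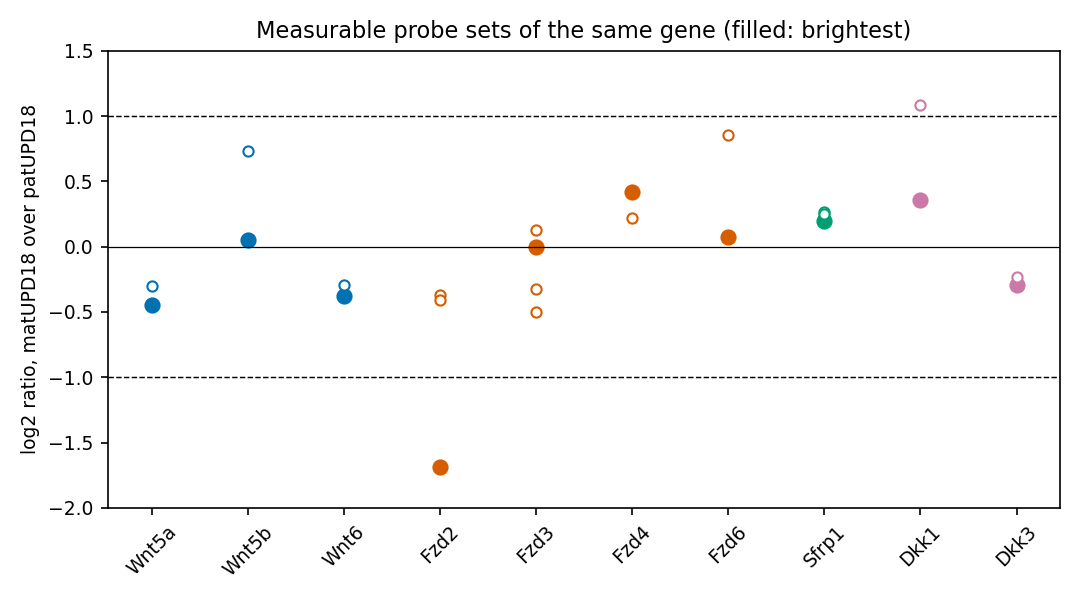
Log2 ratio of matUPD18 over patUPD18 (y axis) for each measurable probe set of the 10 members with more than 1 (x axis). Large filled points are the brightest probe set and small open points the others; the filled Fzd2 point at -1.69 stands apart from its open points at -0.37 and -0.41, and the open Dkk1 point at 1.08 stands above its filled point at 0.36.

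The rest of the pathway was likewise mostly level. Of 90 measurable genes in 7 lists of other Wnt pathway genes, 84 lay within 2-fold (93.3%), 3 passed 2-fold towards matUPD18 and 3 towards patUPD18. Over all measurable genes 95.5% lay within 2-fold, with 2.70% and 1.78% past it in these directions. Their median log2 ratio was 0.00 and that of all genes was -0.04. Scaling to the hybridisation controls put every list median above 0, from 0.11 to 0.84.

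For secretion and release of Wnts, 6 genes were measurable, with a median of -0.21 by brightest probe sets and 0.33 by the median over probe sets. Tmed5, a cargo receptor of the secretory pathway, read 1095 and 389, or 2.81-fold higher in matUPD18. The other measurable Tmed5 probe set read 709 and 737, so that ratio was not shared. Wls, the carrier that brings Wnts to the cell surface, was 1.60-fold higher in patUPD18 by its brightest probe set, whereas the other 2 that were measurable lay on the side of matUPD18. Gpc4, a glypican, was 1.86-fold higher in patUPD18, also against its other measurable probe set. Porcn, the enzyme that attaches the lipid, read 176 and 190.

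In the R-spondin, Lgr and ligase list, 6 genes were measurable, with a median of -0.01. Znrf3, a ligase that removes Frizzleds from the cell surface, read 962 in matUPD18 and 366 in patUPD18, or 2.63-fold higher in matUPD18. Its dimmer probe set, not measurable, read 64.2 and 24.9. Znrf3 ranked 8 in size among genes of like signal. Lgr6 leaned furthest the other way, at 159 and 208.

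Among other secreted antagonists and Lrp modulators, all 9 measurable genes lay within 2-fold, with a median of -0.37 and 7 of 9 higher in patUPD18. Relative to all genes that is the lowest median of the 7 lists, and it turned to 0.11 under control scaling, where the median of all genes was 0.47. Draxin, an axon guidance protein that binds Lrp6, read 250 and 356, and Frzb, a further Frizzled-related antagonist, read 328 and 438. Apcdd1, a membrane inhibitor encoded on chromosome 18, read 2346 and 1683, in the opposite direction, which the other 3 of its 4 measurable probe sets did not share.

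Cytoplasmic transducers had a median of 0.07, and all 20 measurable genes lay within 2-fold. Apc, the scaffold of the beta-catenin destruction complex and also on chromosome 18, read 1675 and 879, or 1.91-fold higher in matUPD18, and 563 and 491 by its other measurable probe set. Ccny, on the same chromosome, read 1030 and 1919, with 1 of its 4 measurable probe sets in the opposite direction. Beta-catenin itself (Ctnnb1) read 20974 and 25428. Nuclear effectors had a median of 0.12, with all 15 within 2-fold. The coactivator gene Ep300 read 832 and 454, and Pygo2, which links beta-catenin to chromatin, read 596 and 762.

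Of the 7 pathway lists, canonical target genes had the most genes past 2-fold, 5 of 15 measurable, where 4.48% of all measurable genes were past it in either direction, and they were split. Cdx2, a posterior patterning gene, read 218 in matUPD18 and 681 in patUPD18, and Msgn1 read 66.8 and 208. Nkd2, a feedback antagonist, read 249 and 512 by its brightest probe set, but 259 and 217 by its other measurable one. These 3 were higher in patUPD18, by 3.13-fold, at least 2.47-fold and 2.05-fold. Cdx2 stayed past 2-fold under every alternative run. Msgn1 did not after control scaling (log2 ratio -0.80) or with the floor at the 60th percentile (-0.13), nor did Nkd2 after control scaling (-0.54) or by the median over its probe sets (-0.39). In the other direction stood Znrf3 and Sp8, a limb and tail bud factor that read 529 and 256 and sat at the threshold, with a log2 ratio of 1.05 as deposited and 0.9989 after quantile scaling. Axin2, the feedback target most used as a readout of beta-catenin signalling, was nearly level at 1473 and 1665. Lef1 read 241 and 261. The median of the list was -0.16.

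Receptors without beta-catenin coupling and planar polarity genes had a median of 0.01, with all 21 measurable genes within 2-fold. Ror2, a receptor of Wnt5a, read 2469 and 1737, while Ryk read 1022 and 1504, with 2 of its 3 measurable probe sets on that side. The furthest genes were Intu, 1.66-fold higher in matUPD18, and Ryk, 1.47-fold higher in patUPD18.

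**Figure D4:**
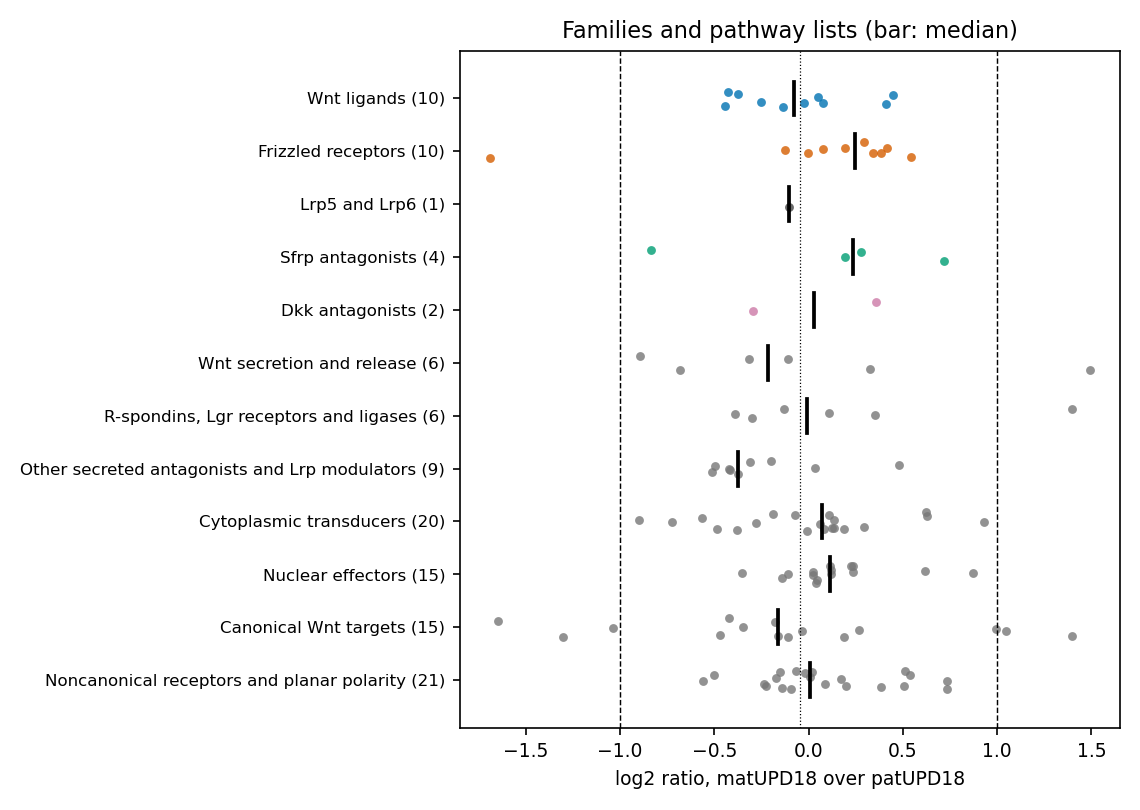
Log2 ratio of matUPD18 over patUPD18 (x axis) of each measurable gene, by family of the Wnt system (coloured) and by pathway list (grey), with the number of measurable genes in brackets and the median as a bar. The dotted line is the median of all genes (-0.04) and dashed lines mark 2-fold; Fzd2 (-1.69) is the only family member beyond them, and 5 of 15 canonical targets lie beyond them.

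Markers of several tissues differed between these RNA samples, and their part in the ratios above was not tested. Of 16 visceral endoderm and yolk sac markers, all measurable, 13 were at least 2-fold higher in matUPD18. By brightest probe set all 16 read higher there, with summed signals of 38451 in matUPD18 and 7036 in patUPD18. Apoa1, an apolipoprotein, was furthest, and Lrp2, Hnf4a and Sox17 were the 3 within 2-fold. Of the measurable probe sets, only 1 of 2 for Hnf4a and 2 of 3 for Lrp2 read higher in matUPD18. Sfrp5 and Dkk1, which anterior visceral endoderm is known to express, also read higher in matUPD18, as did 15 of the 27 measurable members, and a link was not tested. Of 10 primitive red cell markers, 6 passed 2-fold towards patUPD18 and all 10 read higher there, with sums of 46468 and 71554 and Ermap furthest. Of the 10 primitive streak and tail bud markers on the array, 5 were measurable. Cdx2, Msgn1 and Hes7 (115 and 310) passed 2-fold towards patUPD18, although Hes7 had a log2 ratio of -0.93 after control scaling and -0.71 with the floor at the 60th percentile, while Cyp26a1 (268 and 239) and Nkx1-2 (507 and 399) were within 2-fold in the other direction. Neural markers lay within 2-fold in 10 of 12 cases, with 8 of the 12 higher in matUPD18 and a median of 0.20. Fabp7 (317 and 967) and Hes5 (2199 and 4777) passed 2-fold towards patUPD18. After control scaling Hes5 had a log2 ratio of -0.62, and its other measurable probe set had one of -0.90 as deposited. Pax3 (1588 and 1042) was furthest towards matUPD18. All 8 measurable heart and endothelium markers lay within 2-fold, with a median of 0.25, from Tnnt2 (6777 and 7159) to Tbx5 (374 and 222). Of trophoblast and decidua markers, 3 of 9 on the array were measurable, namely Cdx2, Hand1 (287 and 202) and Plac1 (404 and 242).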

How the data were processed

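Per the labels' protocols, embryo RNA was amplified (RiboAmp), biotin-labelled and hybridised, 1 array per genotype. The deposited values are MAS5 signal intensities made by the authors with MAS5 and GCOS (tools named in the submitters' processing notes, without versions), and detection calls were not used here. The 2% trimmed mean was 500.0 on both arrays, which hides any change common to most genes. Of 45101 probe sets, 34958 had 1 gene symbol. Symbols outside the members were updated to RefSeq (GRCm38.p6) by Entrez identifier. The floor, the measurable limit, the 2-fold threshold and the choice of the brightest probe set were as stated with the results, and with 1 array per group no test was possible. Every measurable member was named, in each pathway list the genes past 2-fold and the furthest in each direction, and in the cell type lists the furthest, with the yolk sac and red cell genes past 2-fold given as counts. Further named genes were chosen after their values were seen: Porcn, Wls, Frzb, Ctnnb1, Axin2, Lef1, Ror2, Cyp26a1, Nkx1-2, Hand1, Hnf4a, Lrp2 and Sox17. The members and lists were chosen with earlier results of these data known. The brachyury gene and Tcf7 were not analysed here. Alternatives were 4 scalings, other floors, measurable limits and probe set rules, and a 1.5-fold threshold. The calculation was checked on simulated arrays of known folds. Python 3.11.15, pandas 2.3.3, numpy 2.4.6, statsmodels 0.14.6 and matplotlib 3.10.9 were used.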

Additional observations from a re-analysis of the deposited data

How the results depend on the processing

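No paired analysis was possible because each genotype has 1 array. The count of members at least 2-fold higher in matUPD18, 0 as deposited, was 2 after scaling to the hybridisation controls (Fzd10 and Sfrp5) and 1 at a 1.5-fold threshold. The count at least 2-fold higher in patUPD18, 1 as deposited, was 0 with the median over probe sets and 2 at 1.5-fold. The members' median moved to 0.58 under control scaling, where that of all genes was 0.47. Both counts held under the other alternatives, but a floor at the 40th percentile cannot change a 2-fold call by its construction. Of the 27 measurable members, 17 kept their sign under every alternative run. The other 10, all higher in patUPD18 as deposited, changed it only under control scaling. Control scaling takes the controls' median log2 ratio (-0.50) off every ratio, a shift towards matUPD18. It could thus turn only members higher in patUPD18, and the 15 higher in matUPD18 had to keep their sign under it. Of 257 member ratios under alternatives, 230 counted as unchanged. For this a ratio past 2-fold as deposited had to stay past it. Any other ratio had to stay within 2-fold and within 0.44 of its deposited value. The control shift is larger than that limit, so nearly every ratio had to count as changed under it. Several other alternatives leave most ratios untouched by construction. The count of unchanged ratios is therefore no measure of robustness. The primitive streak and tail bud median, -1.30 over 5 genes, was 0.16 with the measurable limit at the 40th percentile. The Sfrp median, 0.24 over 4 genes, was -0.32 with that limit at the 75th percentile, where fewer genes remain. Dim probe sets left 9 of 19 Wnt, 2 of 4 Dkk and 1 of 2 co-receptor genes not measurable.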
